A study of Mus musculus with 2 samples.

Results

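The genes described here are 10 mouse targets of the transcription factor p53 that act in cell cycle arrest and in the response to stress: Cdkn1a, Mdm2, Ccng1, Phlda3, Trp53inp1, Sesn1, Sesn2, Gdf15, Perp and Zmat3. They were chosen by name, and their probes were found through RefSeq accessions. All 10 had probes, 15 of the 41174 on the array, and all 10 were measured by 13 probes that stood well above background, among 12877 measured genes or accessions. RNA of RankL-treated organoids was compared with RNA of untreated organoids, both grown from wild-type mouse small intestine with EGF, Noggin and R-spondin in the medium. RankL, a cytokine of the TNF family, activates the receptor RANK and drives formation of antigen-sampling M cells in the gut. The treatment used recombinant mouse RankL at 50 to 200 ng/ml, and medium was renewed on day 2 and again on day 5. Which dose and harvest time these RNAs had, and the strain and age of the mice, is not stated in the labels used here.

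The data were 2 dual-colour Agilent arrays, taken here as 1 RNA pair. RankL RNA was labelled with Cy3 on array 1 and with Cy5 on array 2, which is the dye swap of the first. The labels do not say whether both arrays used the same RNA extracts. The arrays were treated as a technical dye swap with 1 replicate per condition, so no difference was tested. Each ratio below is log2 of RankL over untreated, and each ± is the SD over both arrays. If the extracts were shared, the SD covers technical error and not the spread between cultures. That SD had a median of 0.148 over all measured genes and of 0.117 over the 10 members. A gene was called higher or lower when its mean ratio was 1 or more in size (2-fold) and both arrays gave 0.5 or more with the same sign. By that rule 5.47% of all measured genes were higher with RankL and 2.5% were lower. All 8 epithelial markers (Epcam, Cdh1, keratins and others) were measured and 0 met the rule, with ratios from -0.92 for Krt18 to 0.81 for Vil1. Krt18 was lower by the rule without background subtraction, with median centring and on array 1 alone (-1.29 to -0.71 over the alternatives). Of the markers with a probe, 2 of 7 for fibroblasts, 0 of 7 for immune cells and 0 of 4 for endothelium were measured. The 2 were Col1a2 at 0.17 ± 0.165 and Pdgfrb at 0.90 ± 0.235, or 1.87-fold. Pdgfrb was not well above background in untreated RNA, so the size of its ratio is uncertain. Pdgfrb was higher by the rule in 4 of 10 alternatives (0.74 to 2.5). All 8 M cell markers were higher with RankL, with a median of 4.54, and the part of M cells in the results below was not tested. Ccl20 was the highest, at 5.96 and 6.04 on the 2 arrays, and was well above background in untreated RNA on 1 of them. It was followed by Anxa5, Gp2, Ccl9, Spib, Tnfaip2, Aif1 and the lowest, Marcksl1 at 2.58. In RNA from whole organoids, fewer cells of a type and less RNA per cell cannot be told apart.

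p53 is held at a low level by Mdm2, which marks it for degradation, and accumulates after DNA damage and other stress. It then switches on genes that stop the cell cycle, repair DNA, restrain growth or trigger death, and Mdm2 itself, which closes a feedback loop. In the intestinal crypt p53 is best known for the arrest and death of dividing cells after irradiation. Several of these genes also answer to other regulators: Gdf15 and Sesn2 to the stress factor ATF4, and Perp to the p53 relative p63.

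Promoter windows, which run from 250 bases before to 50 bases after a transcript's start, were available from RefSeq (build GRCm38.p6) for 7 of the 10 genes. They covered 10 windows of Cdkn1a, Mdm2, Ccng1, Phlda3, Sesn1, Sesn2 and Gdf15, and Trp53inp1, Perp and Zmat3 were not matched. The p53 half-site of 10 bases occurred in 4 of these 10 windows, against 8.36% of all 32851 windows of that length. A full site, taken as 2 half-sites at most 13 bases apart, occurred in 1 window, the upstream start of Cdkn1a, against 0.0731% (24) of all windows. The NF-kB site of 10 bases occurred in 0 of the 10 member windows, against 4.51% of all windows. Both motifs were searched on both strands, and no match in the member windows overlapped another. A match describes letters and not binding, and windows without one say nothing about sites elsewhere. The 4 windows are printed 5′ to 3′ on the gene's strand because they are the member promoters in which the letters of the p53 half-site were found. Capitals mark the half-sites.
Cdkn1a, chr17:29090729-29091028, plus strand: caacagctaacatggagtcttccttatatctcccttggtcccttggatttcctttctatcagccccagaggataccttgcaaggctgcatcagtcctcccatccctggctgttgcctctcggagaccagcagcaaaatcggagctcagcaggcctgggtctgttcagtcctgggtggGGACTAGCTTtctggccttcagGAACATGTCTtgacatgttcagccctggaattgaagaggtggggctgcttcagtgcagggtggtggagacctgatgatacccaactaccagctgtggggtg
Mdm2, chr10:117710709-117711008, minus strand: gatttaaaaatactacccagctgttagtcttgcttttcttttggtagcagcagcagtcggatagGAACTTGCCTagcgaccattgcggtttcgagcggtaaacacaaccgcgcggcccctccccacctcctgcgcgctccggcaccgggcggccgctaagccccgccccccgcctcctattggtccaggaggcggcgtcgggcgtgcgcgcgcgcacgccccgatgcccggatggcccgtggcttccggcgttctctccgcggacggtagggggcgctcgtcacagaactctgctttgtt
Ccng1, chr11:40755237-40755536, minus strand: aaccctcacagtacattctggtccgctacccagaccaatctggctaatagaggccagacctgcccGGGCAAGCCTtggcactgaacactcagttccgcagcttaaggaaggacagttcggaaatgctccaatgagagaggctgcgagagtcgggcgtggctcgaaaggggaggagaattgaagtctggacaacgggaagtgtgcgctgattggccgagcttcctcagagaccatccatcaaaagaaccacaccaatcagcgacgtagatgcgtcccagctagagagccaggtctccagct
Sesn1, chr10:41887189-41887488, plus strand: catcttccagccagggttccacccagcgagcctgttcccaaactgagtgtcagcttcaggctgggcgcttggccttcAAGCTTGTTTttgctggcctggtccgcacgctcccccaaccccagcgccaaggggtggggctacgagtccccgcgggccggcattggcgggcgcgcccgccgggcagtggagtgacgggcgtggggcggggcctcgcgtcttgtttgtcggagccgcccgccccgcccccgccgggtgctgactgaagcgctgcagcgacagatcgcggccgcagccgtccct
In the Cdkn1a window the half-sites GGACTAGCTT and GAACATGTCT lay at -73 and -51 from the start. The bases directly after GAACATGTCT, tgacatgttc, differ from the motif only at their first base, so they were not marked or counted. The half-sites of Mdm2 (GAACTTGCCT), Ccng1 (GGGCAAGCCT) and Sesn1 (AAGCTTGTTT) lay at -186, -185 and -173. Cdkn1a and Sesn1 each had another window, which held no half-site. The 4 genes had ratios of 0.41 to 0.85. The 3 matched genes without a whole half-site inside their windows had 0.94 (Phlda3), 0.03 (Sesn2) and -0.46 (Gdf15). The Phlda3 window ended in gaacatgt, which matches the start of the half-site motif, and its edge cuts off the rest. A link between the motif and the ratios was not tested.

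The 10 members leaned towards higher signal with RankL, but most differences were small. Trp53inp1 and Zmat3 were higher by the size rule, 0 members were lower and 8 met the rule in neither direction. That is 2 of 10 (20.0%) against the background of 5.47%, in a list too short for the share to be read as a result about the group. The members' median ratio was 0.62, against 0.00859 for all measured genes. On array 1 the median was 0.70 and on array 2 it was 0.46. The mean ratio was above 0 for 9 members, against 51.0% of all genes. It was above 0 on both arrays for 8 members, below 0 on both for Gdf15 and of opposite sign for Sesn2, where 37.3% of all genes were above 0 on both arrays and 35.1% below. The scanner software's own ratios also put 2 members higher and 0 lower, against 8.92% and 6.07% of all genes. With a rule of 1.5-fold for the mean and a smaller minimum on each array, 5 members were higher and 0 lower, against 10.7% and 7.18% of all genes. Those 5 were Trp53inp1, Zmat3, Phlda3, Cdkn1a and Sesn1.

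**Figure D1:**
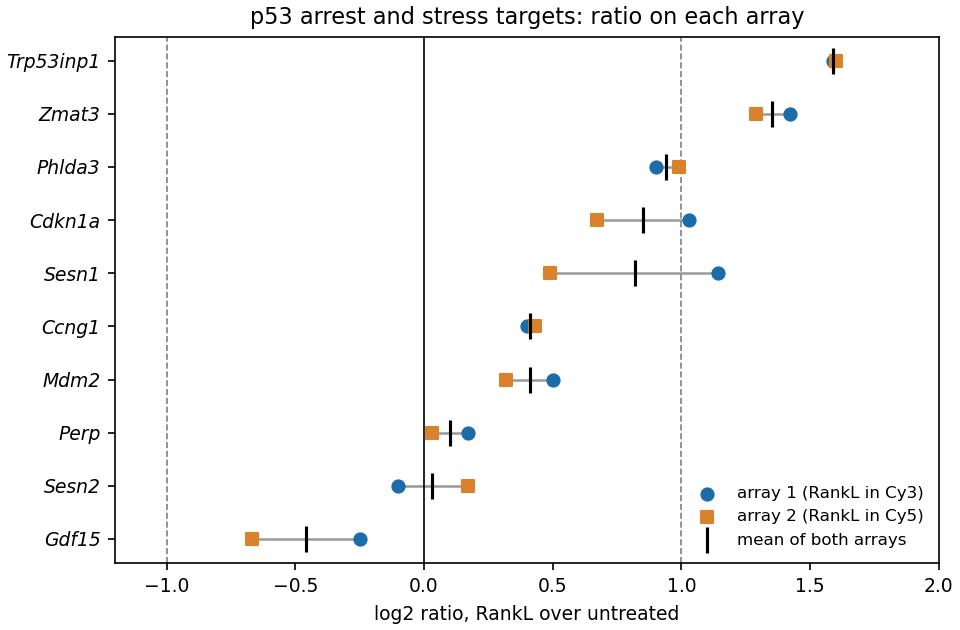
Log2 ratio of RankL over untreated (horizontal) for each of the 10 genes (vertical, ordered by mean), with a circle for array 1, a square for array 2 and a bar for their mean; dashed lines mark 1 and -1. Trp53inp1 at 1.59 and Zmat3 at 1.35 lie past 1 on both arrays, Cdkn1a and Sesn1 pass 1 on array 1 only, and Gdf15 lies below 0 on both.

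**Figure D2:**
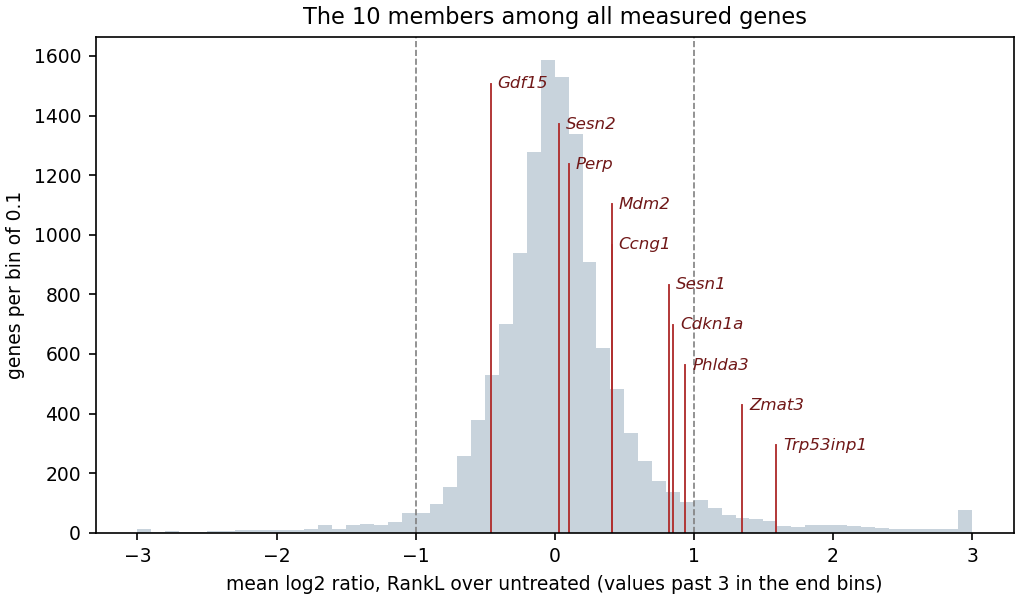
Mean log2 ratio of RankL over untreated (horizontal) against the number of the 12877 measured genes in each bin of 0.1 (vertical), with a red line at each member's ratio; line heights only separate the names, and dashed lines mark 1 and -1. The members run from -0.46 (Gdf15) to 1.59 (Trp53inp1), and 9 of the 10 lie above 0.

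The brake on the cell cycle and the feedback loop came first. Cdkn1a encodes p21, which inhibits cyclin-dependent kinases and is the main mediator of p53-driven arrest. Its normalized intensity was 1393 and 1276 in RankL RNA, against 683 and 801 in untreated RNA, on array 1 and array 2. Both RankL values lay above both untreated values. The ratio was 1.03 on array 1 and 0.67 on array 2, a mean of 0.85 ± 0.253 or 1.80-fold, short of the rule, and higher than for 93.3% of measured genes. Its probe was the only measured member probe printed 10 times per array. The 10 spots read a log2 ratio of 0.73 to 1.20 (median 1.07) on array 1, with an SD of 0.139. On array 2 they read 0.52 to 0.86 (median 0.65), with an SD of 0.12. On array 1 the spots read 1147 to 1717 in RankL RNA, against 564 to 815 in untreated RNA, with no overlap. On array 2 they read 959 to 1547 in RankL RNA, against 638 to 980.5 in untreated RNA, and the ranges just overlapped. All 10 spots on each array had ratios above 0, and the gap between the arrays (0.36) was larger than the SD of the spots on either array.

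Mdm2, the ubiquitin ligase that p53 induces and that degrades p53, differed less. Its intensity was 200.1 and 199 in RankL RNA, against 141 and 159.7 in untreated RNA. The ratio was 0.41 ± 0.132, or 1.33-fold. The RankL values were higher on both arrays, but the probe was dim. A second Mdm2 probe, printed 10 times, was above background on too few spots to count as measured and read 85.7 and 85.2 with RankL, against 85.3 and 84.6 untreated, a ratio of 0.01. Ccng1, or cyclin G1, binds the phosphatase PP2A and acts on Mdm2. Its brightest probe read 479 and 513 in RankL RNA, against 363 and 381 in untreated RNA, and the ratio was 0.41 ± 0.0208. A second Ccng1 probe read 0.48 ± 0.273. Both Mdm2 and Ccng1 thus read 1.33-fold by the brightest probe with no overlap between the RNAs, at the 83.5th and 83.7th percentile of measured genes and short of the rule.

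The largest ratios among the members belonged to Trp53inp1 and Zmat3. Trp53inp1 encodes a stress-induced protein that takes part in p53 activation in the nucleus and in autophagy in the cytoplasm. It read 907 and 852 in RankL RNA, against 301 and 281 in untreated RNA. The 2 arrays gave 1.59 and 1.60, a mean of 1.59 ± 0.00296 or 3.02-fold, higher than for 97.5% of measured genes. The second, dimmer probe read 0.66 and 0.96 on the 2 arrays, a mean of 0.81 ± 0.211. By that probe alone the gene would not have met the rule. With the scanner software's ratios the 2 probes gave 1.76 and 1.55. Zmat3 encodes a zinc-finger protein that binds RNA and affects splicing and transcript stability. It read 375 and 428 in RankL RNA, against 141 and 175 in untreated RNA, with no overlap. The untreated signal was dim, close to that of the Mdm2 probe (141 and 159.7), so the size of the Zmat3 ratio is uncertain. The ratio was 1.42 on array 1 and 1.29 on array 2, a mean of 1.35 ± 0.088 or 2.56-fold, and 1.82 with the scanner software's ratios.

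Phlda3, a small lipid-binding protein that competes with the kinase Akt for the membrane and so restrains Akt signalling, came next. It read 2739 and 2727 in RankL RNA, against 1469 and 1376 in untreated RNA. The arrays gave 0.90 and 0.99, a mean of 0.94 ± 0.0621 or 1.92-fold. This was just short of the rule and repeated closely between the arrays, with RankL values nearly the same on both.

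**Figure D3:**
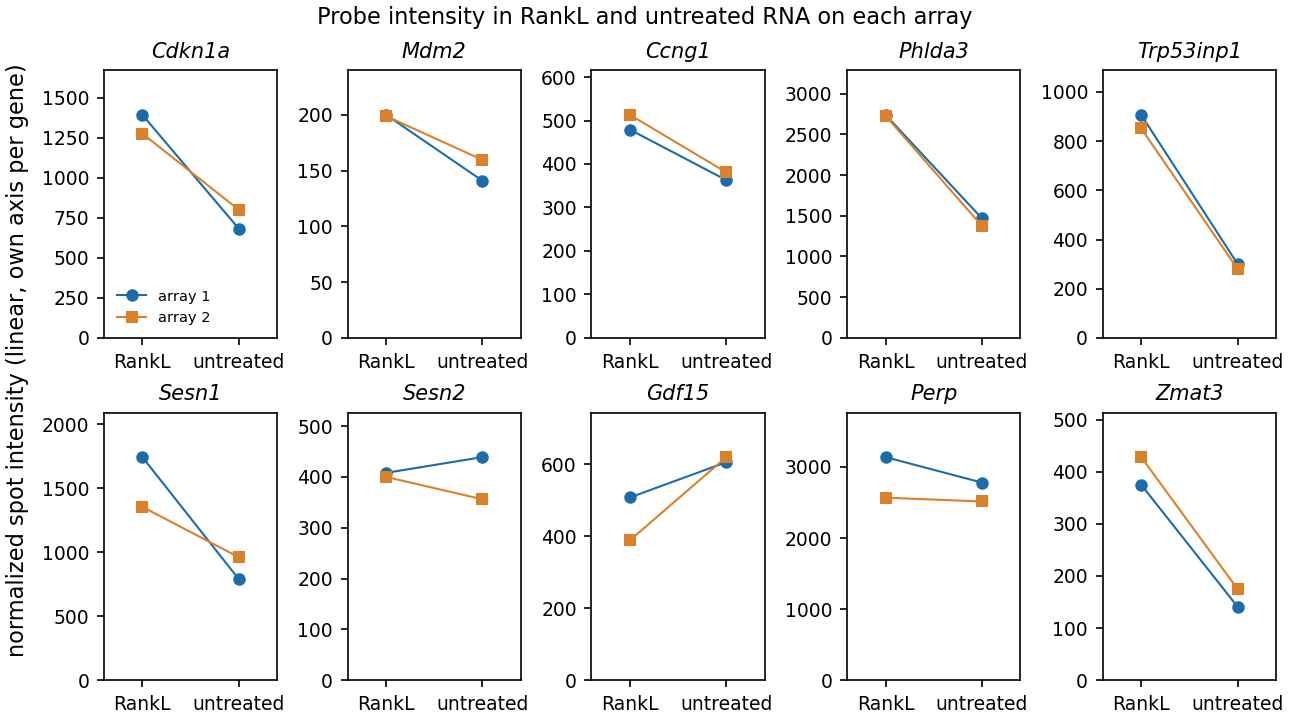
Normalized spot intensity (vertical, linear, starting at 0, a separate axis per gene) of each member's brightest probe in RankL RNA (left) and untreated RNA (right), with a line per array. Trp53inp1, Zmat3 and Phlda3 show steep, nearly parallel lines, the lines of Sesn2 slope in opposite directions, and both lines of Gdf15 are higher in untreated RNA.

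The sestrins, which restrain the growth kinase complex mTORC1 and limit oxidative stress, did not share a value. Sesn1, the member of the family most closely tied to p53, read 1744 and 1355 in RankL RNA, against 791 and 962 in untreated RNA. The RankL values lay above both untreated values, but the arrays gave 1.14 and 0.49, a mean of 0.82 ± 0.457. That SD was the largest of the 10 members and above the 90th percentile of all genes (0.382). A second Sesn1 probe read 0.33 ± 0.0423, or 0.71 with the scanner software's ratios, and the remaining probe was not above background. Sesn2, which also senses leucine and is induced through ATF4, read 408 and 400.0 in RankL RNA, against 439 and 356 in untreated RNA. Its ranges overlapped, the arrays disagreed in sign (-0.10 and 0.17) and the mean was 0.03 ± 0.192. The difference between Sesn1 and Sesn2 was not tested, since the arrays were taken as 1 RNA pair.

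Gdf15 and Perp act outside the nucleus and outside the cell cycle. Gdf15, a secreted stress cytokine whose receptor GFRAL lies in the hindbrain, was the only member with a ratio below 0 on both arrays. It read 508 and 389 in RankL RNA, against 606 and 620.2 in untreated RNA. The ratio was -0.25 on array 1 and -0.67 on array 2, a mean of -0.46 ± 0.297, at the 11.2th percentile of measured genes and short of the rule. Both RankL values lay below both untreated values. Perp, a membrane protein of desmosomes, read 3138 and 2567 in RankL RNA, against 2779.9 and 2514 in untreated RNA. The mean ratio was 0.10 ± 0.102, no larger than the SD of the arrays.

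The software's own error estimate for a log2 ratio was 0.204 to 0.28 for the 10 brightest probes. The software's ratio exceeded that estimate in the same direction on both arrays for 8 members, all but Sesn2 and Perp, as it did for 48.0% of all measured genes. Where a gene had 2 measured probes, the brighter probe gave the larger ratio for Trp53inp1 (by 0.78) and Sesn1 (by 0.49) and the smaller one for Ccng1. In the software's ratios these gaps were 0.21 and 0.09. For Ccng1 the brighter minus the dimmer probe was -0.07, and -0.17 in the software's ratios. An offset of 50 was added to each corrected signal. With an offset of 16 the brighter and dimmer probes read 1.72 and 1.09 for Trp53inp1 and 0.85 and 0.48 for Sesn1. For Ccng1 they read 0.46 and 0.55. The part of the offset in the gaps was not tested.

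**Figure D4:**
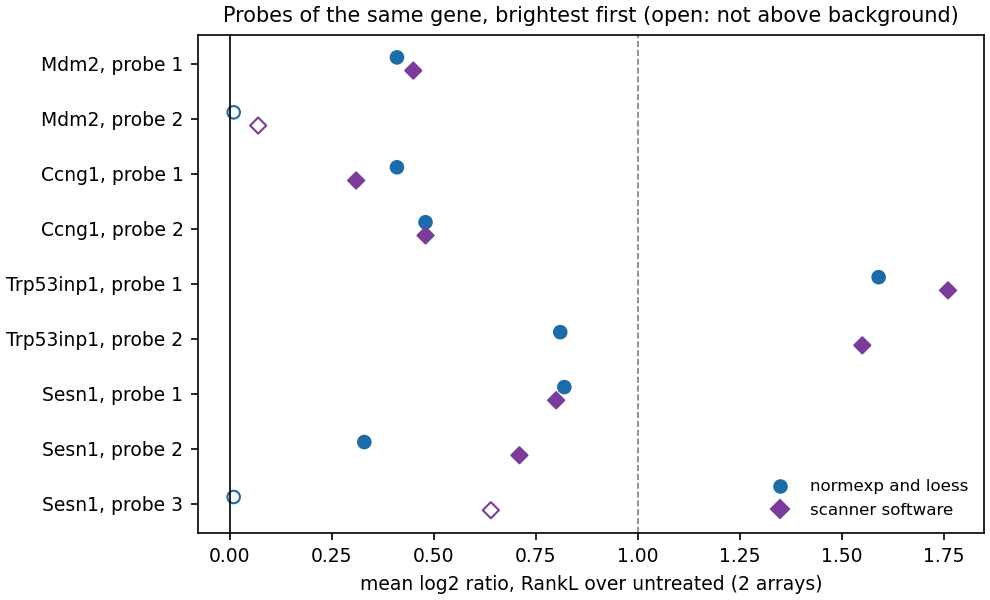
Mean log2 ratio of RankL over untreated over 2 arrays (horizontal) for each probe of the 4 members with several probes (vertical, brightest first), after normexp and loess (circles) and from the scanner software (diamonds); open symbols were not above background in either RNA. The probes of Trp53inp1 lie 0.78 apart after normexp and 0.21 apart in the software's ratios.

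Genes around the 10 members were then read from lists. Of 14 genes of the p53 family and its regulators, 11 were measured and 0 met the rule (median -0.07). Trp53 itself was the highest at 0.64 ± 0.481, with 0.30 on array 1, 0.98 on array 2 and a second probe at 0.02. Chek2, a kinase that activates p53 after DNA breaks, was the lowest at -0.41, with -0.37 on array 1 and -0.45 on array 2. It was not well above background in RankL RNA on either array, so the size of its ratio is uncertain. With the scanner software's ratios Chek2 was lower by the rule, at -2.24.

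Of 13 p53 targets that act in apoptosis, 11 were measured, 1 was higher and 0 lower, against 5.47% and 2.5% of all genes. The list median was 0.24, and from 0.04 to 0.60 over the alternatives. The gene that was higher was Pmaip1, which encodes the BH3-only death protein Noxa, at 2.49 ± 0.035 or 5.63-fold. The lowest was Siva1, a proapoptotic adaptor, at -0.62 ± 0.219. The ratio of Pmaip1 was larger than that of any of the 10 members.

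Of 25 other p53 targets of arrest, repair and metabolism, 17 were measured, 4 were higher and 0 lower, against 5.47% and 2.5% of all genes. The median of the list was 0.03, with 9 of its 17 genes above 0 and 8 below. Plk2, a polo-like kinase, was at 2.80 ± 0.572 or 6.99-fold, and 4.21 with the scanner software's ratios. Its signal in untreated RNA was dim, at 94.7 on array 1 and 88.0 on array 2, so the size of its ratio is uncertain. Gadd45a, a growth arrest protein induced by DNA damage, was at 1.57 ± 0.242. Psrc1, a microtubule protein, was at 1.15 ± 0.358 with other probes at 0.62 and 0.44, and Gpx1, a glutathione peroxidase, was at 1.09 ± 0.129. Psrc1 and Gpx1 did not meet the rule on array 2 alone, Gpx1 also not with median centring (0.78 to 1.18 over the alternatives), and Psrc1 also not by the mean of its probes or its smallest ratio. The lowest was Btg2, an antiproliferative transcript, at -0.47 ± 0.763, with -1.01 on array 1, 0.06 on array 2 and other probes at -0.44 and -0.45.

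The other inhibitors of cyclin-dependent kinases differed among themselves. Of 6 measured out of 7, 1 was higher and 2 lower, against 5.47% and 2.5% of all genes. The list median was -0.46, and from -0.63 to -0.04 over the alternatives. Cdkn2b, which encodes p15, was at 1.72 ± 0.0268 or 3.30-fold. Cdkn2d, which encodes p19, was at -1.06 ± 0.122 and Cdkn2c, which encodes p18, at -1.03 ± 0.474, and neither met the rule on array 2 alone. Cdkn1a, at 0.85, thus lay between Cdkn2b and these 2 genes.

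Genes that p21 represses through the DREAM complex were read beside Cdkn1a. Of 17 measured out of 18, 0 met the rule, 15 lay below 0 and 2 above, where 49.0% of all genes lay below 0, and the median was -0.48. Cyclin A2 (Ccna2) was the lowest at -0.78 ± 0.476, and Mybl2, a factor that drives mitotic genes, the highest at 0.61 ± 0.266. Array 1 alone put 2 of these genes lower by the rule, against 2.56% of all genes. The 1.5-fold threshold put 4 lower and 1 higher, against 7.18% and 10.7% of all genes. Whether p21 acted on these genes here was not tested.

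**Figure D5:**
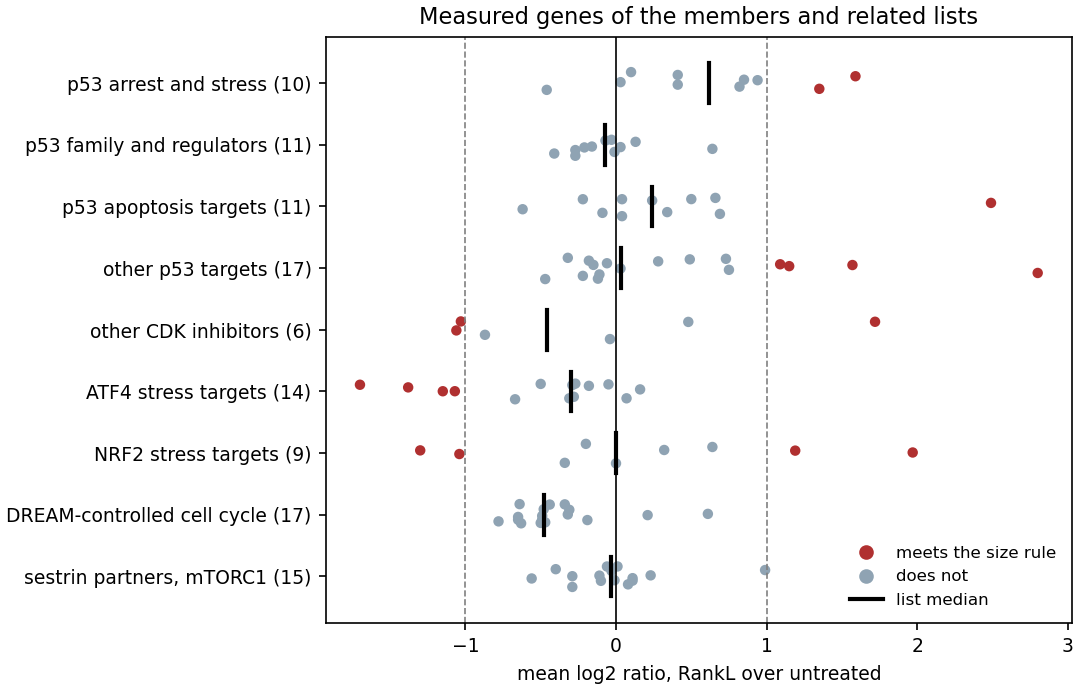
Mean log2 ratio of RankL over untreated (horizontal) of the measured genes in each list (vertical, number measured in brackets), with a black bar at the list median, red points for genes that met the size rule and dashed lines at 1 and -1; the vertical scatter within a list has no meaning. The median is 0.62 for the 10 members, -0.30 for ATF4 targets and -0.48 for DREAM-controlled genes.

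Gdf15 and Sesn2 also belong to the ATF4 stress response. Of 15 genes in that list 14 were measured. By the rule 0 were higher and 4 lower, against 5.47% and 2.5% of all genes. These 14 ratios had a median of -0.30, or -0.59 when taken from the software or the series matrix. Nupr1, a small stress-induced chromatin protein, was at -1.70 ± 0.276, and Vldlr, a lipoprotein receptor, at -1.38 ± 0.515 with a second probe at -0.32, by which it did not meet the rule. The amino acid synthesis enzymes Asns and Psat1 were at -1.15 ± 0.448 and -1.07 ± 0.371, and neither met the rule on array 2 alone. Ddit3, which encodes CHOP, was the highest at 0.16 ± 0.059. Of the 14 genes 12 were below 0, against 49.0% of all genes. Gdf15, at -0.46, was below 0 on both arrays, and Sesn2, at 0.03, was of opposite sign on them.

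NRF2 targets, which include antioxidant enzymes and share Sesn2 as a target, split in direction. Of 9 measured, 2 were higher and 2 lower, against 5.47% and 2.5% of all genes. Srxn1, which repairs oxidized peroxiredoxins, was at 1.97 ± 0.172, and Gclc, the catalytic subunit for glutathione synthesis, at 1.19 ± 0.148. Nqo1, a quinone reductase, was at -1.30 ± 0.187 and Gsr, glutathione reductase, at -1.04 ± 0.248, with Gsr not meeting the rule on array 1 alone (-0.86) or by its smallest ratio (-0.95). Of 15 measured genes of sestrin partners and mTORC1 control, 0 met the rule (median -0.03). The highest was Prkaa2, a catalytic subunit of AMPK, at 0.99 ± 0.0153, which met the rule with an offset of 16, with the scanner software's and series matrix ratios and on array 2 alone. The lowest was Keap1, which holds NRF2 in check, at -0.56 ± 0.147. Of the 7 relatives and receptor genes of Gdf15 with a probe, only Tgfb3 was measured, at 0.12 ± 0.0776.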

How the data were processed

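Total RNA was measured on 2 dual-colour Agilent arrays of 1 slide. With the arrays taken as 1 RNA pair, no batch effect could be estimated. The deposited scanner files give spot and local background intensity as median pixel brightness, and flags per spot, from Agilent Feature Extraction 10.5.1.1 per the file headers, which name mouse build mm9 for the array design. Version 8.5.1.1 is named in the submitters' processing notes. The deposited log10 ratios are background-subtracted and dye-normalized red over green, per the file headers. The authors' series matrix repeats these deposited log10 ratios to within 5e-06, after reversal of array 1, which gives RankL over untreated in each column; both column medians are 0. The 2 arrays count as 1 replicate.

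Here background was corrected by normexp (offset 50) and ratios were normalized by loess in limma 3.58.1 (R 4.3.3), with the 1639 control spots at weight 0. The median spot signal was used, since no mean spot signal was among the columns used here. Control spots and spots flagged as feature outliers (170 and 164) were left out, and 0 spots were saturated. Of 43379 spots, 38.3% and 43.4% were well above background for RankL and 39.6% and 40.1% for untreated RNA. Intensities in the text are per channel after loess and Aquantile normalization. A probe counted as measured if both arrays had it well above background in the same RNA (for repeated probes, in at least 0.5 of spots), and the brightest measured probe on average stood for its gene. Names came from RefSeq accessions (GRCm38.p6) for 26918 of 41174 probes (65.4%). For Pdgfrb and Chek2, which were not well above background in 1 of the RNAs, the ratio used the dim probe's own signal. The calling steps were also run on simulated data with set noise, in which probes well above background in both RNAs were changed by known amounts. That run left out the choice of 1 probe per gene, so it does not bear on any member's call.

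The members and gene lists were chosen with earlier results of these data known. All members are named, as are genes of the other lists that met the size rule and each list's highest and lowest gene. Alternatives changed the offset, background, normalization, ratio source, dim-probe filter, probe choice, array and size threshold.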

Additional observations from a re-analysis of the deposited data

How the results depend on the processing

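The 2 members that met the size rule, Trp53inp1 and Zmat3, were the members called in 9 of the 12 alternatives run for that count (offset 16, no background subtraction, median centring, the scanner software's ratios, the series matrix, no dim-probe filter, above background in both RNAs, the mean of measured probes, and array 2 alone). Among these 9, the series matrix repeated the scanner software's ratios. The 2 dim-probe settings left every member's ratio unchanged, so they could not change the count. The count was 1 (Zmat3) with the probe of smallest absolute ratio, where 4.61% of all genes were higher. It was 5 with the 1.5-fold threshold, against 10.7% of all genes. On array 1 alone it was 4, with Cdkn1a and Sesn1 added, against 5.68% of all genes. The members' median of 0.62 ran from 0.41, with the probe of smallest absolute ratio, to 0.70 on array 1 alone. Over 11 alternatives Zmat3 was called in 11 (1.27 to 1.82) and Trp53inp1 in 10 (0.81 to 1.76). Zmat3 had 1 probe, so the settings for probe choice could not change its ratio. Cdkn1a (0.67 to 1.03), Phlda3 (0.80 to 0.99), Sesn1 (0.33 to 1.14), Mdm2 (0.32 to 0.52) and Ccng1 (0.31 to 0.46) stayed above 0 and Gdf15 (-0.67 to -0.25) below 0, while Perp was at -0.07 with median centring and Sesn2 ran from -0.10 to 0.17, with 5 of 11 below 0. The scanner software's ratios called 1148 genes higher and 781 lower, against 704 and 322 in the setting used, and the cause was not tested. The 1.5-fold threshold, a looser rule on the same ratios, called 1383 and 924. No paired analysis was possible because the arrays were taken as 1 RNA pair. The 1 pair, dim untreated signal for Zmat3, and dim signal near background for the second probes of Mdm2, Trp53inp1 and Sesn1, limit these values.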
